A study of Mus musculus with 6 samples.

Results

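The genes for IL-2 (*Il2*), IL-3 (*Il3*), GM-CSF (*Csf2*), M-CSF (*Csf1*) and IL-9 (*Il9*) were followed across mouse CD4+ T cells in 3 states, Naive, Th17 and Th1. They were taken by symbol from the count files and are 5 of the 24223 genes counted there. RNA-Seq was made from 6 libraries, 2 for each cell type. Naive cells were CD4+CD44- T cells isolated with magnetic beads from pooled lymph nodes and spleens of C57BL/6 mice aged 1 to 2 months. Th17 and Th1 cells were grown from such cells in culture and collected on day 5, after activation through CD3 and CD28 with antibodies or beads. Th17 cultures received anti-IL-4, anti-IFN-γ, TGF-β, IL-6, IL-1β and IL-23. Th1 cultures received anti-IL-4, IL-12 and IL-2. Naive cells were neither activated nor cultured with these agents, so activation, culture and polarization cannot be told apart in a comparison with Naive. IL-2 was given to Th1 cultures and not to Th17 cultures, so its share in a difference between them cannot be told apart from that of the other agents. Stimulation with PMA and ionomycin was described for the staining of cytokines in the cells, and none was named for the RNA.

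IL-2 is the growth factor that activated T cells make for themselves and for regulatory T cells, and it signals through JAK kinases and STAT5. IL-3 and GM-CSF act on myeloid cells, mast cells and basophils through receptors that share a common beta chain, and GM-CSF made by T helper cells drives inflammation in models of autoimmunity. IL-9 acts on mast cells and lymphocytes through a receptor that uses the same common gamma chain as the IL-2 receptor. M-CSF keeps monocytes and macrophages alive through CSF1R, a receptor tyrosine kinase, and is the one of these proteins that does not signal through a JAK-coupled receptor. Transcription of *Il2* and *Csf2* is induced by the T cell receptor through NFAT, AP-1 and NF-κB.

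All 5 genes lie on the minus strand of GRCm38, the assembly also called mm10. In GENCODE vM21, *Il2* spans chr3:37120523-37125959 with 4 exons, and its span overlaps *Adad1* on the opposite strand, which had at most 1 count in any library. *Csf1* spans chr3:107741048-107760469 on the same chromosome, with 7 transcripts of which the longest has 9 exons. *Csf2* (chr11:54247271-54249667, 4 exons) and *Il3* (chr11:54265303-54267277, 5 exons) are neighbours 15.6 kb apart. The span of *Csf2* overlaps the antisense gene *Gm12223*, which was not among the genes counted, and whether counting used strand was not settled by the sources. *Il9* spans chr13:56479277-56482246 with 5 exons.

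The promoter sequences of the 3 genes with enough counts for a test are shown because each gene had a different order of levels over the cell types. Each is the 250 bases before the RefSeq start on GRCm38.p6, read on the strand of the gene. Capitals mark GGAAA, the core bound by NFAT and Ets factors, or TTTCC, the same core on the other strand. The windows are chr3:37125955-37126204 for *Il2*, chr11:54249900-54250149 for *Csf2* and chr3:107760470-107760719 for *Csf1*. The RefSeq start of *Csf2* lies 232 bases upstream of its start in GENCODE, so that its window ends that far before the latter.
Il2: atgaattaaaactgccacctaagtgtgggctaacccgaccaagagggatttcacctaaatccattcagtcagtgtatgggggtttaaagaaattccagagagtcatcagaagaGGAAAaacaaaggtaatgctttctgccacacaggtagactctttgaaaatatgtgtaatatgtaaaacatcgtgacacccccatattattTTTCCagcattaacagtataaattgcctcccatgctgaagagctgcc
Csf2: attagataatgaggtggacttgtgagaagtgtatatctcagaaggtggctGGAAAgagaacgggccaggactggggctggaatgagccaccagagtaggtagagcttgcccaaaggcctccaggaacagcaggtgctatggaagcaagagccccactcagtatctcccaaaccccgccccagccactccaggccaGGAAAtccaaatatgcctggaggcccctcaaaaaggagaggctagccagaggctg
Csf1: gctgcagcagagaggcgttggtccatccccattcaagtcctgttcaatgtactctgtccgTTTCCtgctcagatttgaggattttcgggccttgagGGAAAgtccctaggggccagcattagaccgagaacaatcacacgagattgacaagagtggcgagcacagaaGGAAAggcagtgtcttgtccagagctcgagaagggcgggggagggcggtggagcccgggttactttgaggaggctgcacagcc

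Over windows of 250 bases before to 50 bases after the start, GGAAA had 2 matches on either strand for *Il2*, 3 for *Csf2*, 3 for *Csf1*, 3 for *Il9* and 1 for *Il3*. The third match of *Csf2* lies after the start and is not shown. At least 1 match was held by 61.3% of 32851 RefSeq promoters, 2 or more by 26.7% and 3 or more by 9.4%. The AP-1 motif TGANTCA, present in 7.8% of promoters, matched in *Il9* and in no other of the 5 windows. The STAT motif TTCNNNGAA, present in 8.3% of promoters, had no match in the 5 windows. These matches describe the letters in the windows and were not compared with binding.

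Reads counted on genes ranged from 17742158 to 69080017 per library, and replicate 1 held between 3.38 and 3.77 times as many as replicate 2 of its cell type. The limit of detection was set at 3 counts, which corresponds to 0.0434 to 0.169 CPM (counts scaled to a library total of 1000000). The T cell markers *Cd3d*, *Cd3e*, *Cd3g*, *Cd4* and *Lck* summed to between 2259 and 3062 CPM in every library. The Th17 marker *Il17a* stood at 573 and 688 CPM in Th17 and at most at 0.507 CPM elsewhere. Th1 markers (*Ifng*, *Tbx21*, *Il12rb2*, *Cxcr3*) summed to 725 and 658 CPM in Th1 and to at most 102 CPM elsewhere. The naive T cell markers *Ccr7*, *Lef1* and *Tcf7* were not called in any comparison, with log2 fold changes against Naive of 0.00, -0.60 and -0.19 in Th17 and 0.33, 0.17 and -0.95 in Th1. Genes that passed edgeR's filter on low counts were tested, 13607 in all, and *Il2*, *Csf2* and *Csf1* were among them, whereas *Il3* and *Il9* were not. Genes were called by edgeR's quasi-likelihood test where the p-value, adjusted by Benjamini-Hochberg over all genes tested, was below 0.01 and the log2 fold change was beyond 1 in either direction. The smallest p-value that exact two-sided permutation of 2 and 2 libraries allows is 0.333, so none is given for a single gene.

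*Il2* was highest in Th17, *Csf1* was highest in Th1, and *Csf2* was high in both polarized cell types and at most at 0.293 CPM in Naive. In bulk RNA, fewer cells that make a transcript and less transcript per cell cannot be told apart. Summed over the 5 genes, the mean levels of Naive, Th17 and Th1 were 5.31, 43.7 and 303 CPM. *Csf1* made up 85.0% of the Naive sum, *Csf2* 65.7% of the Th17 sum and *Csf1* 92.1% of the Th1 sum. These shares are not corrected for length, which raises that of *Csf1*. Its exons cover 5281 bases, against 536 to 1144 bases for the other genes.

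**Figure D1:**
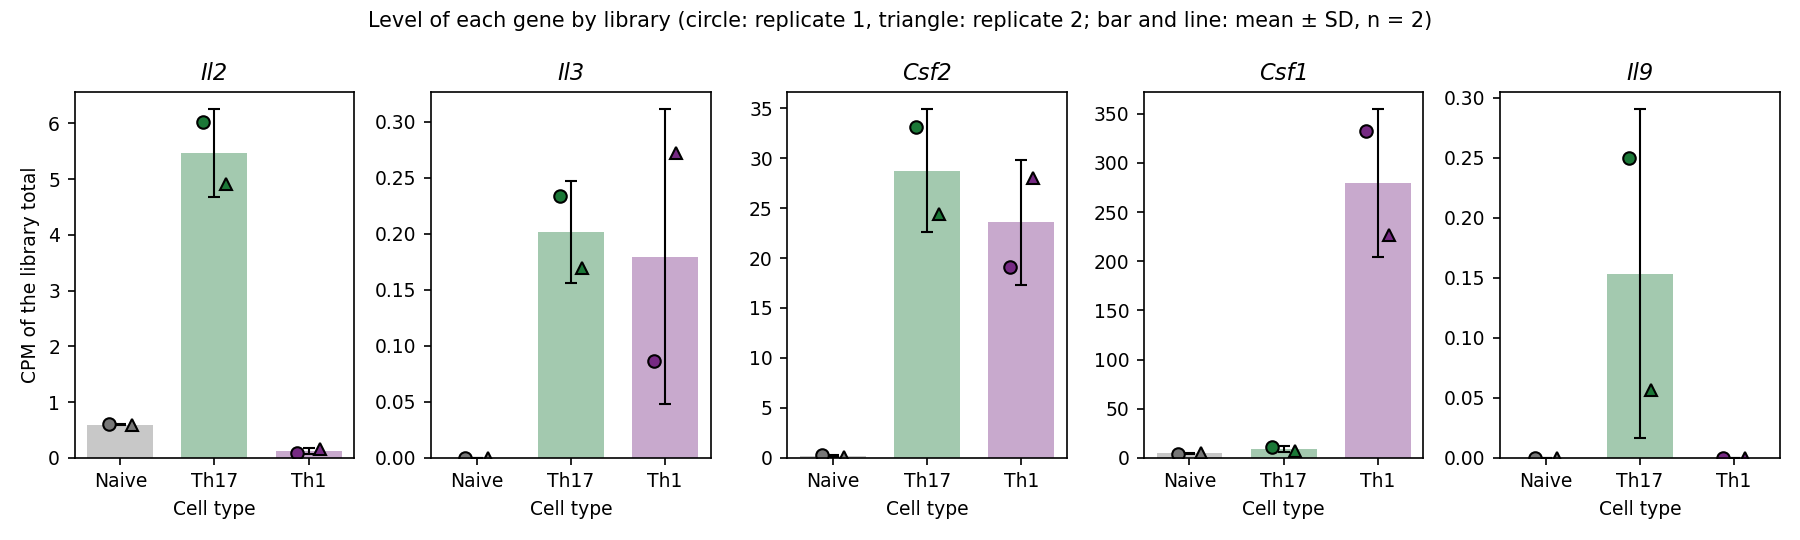
CPM of the 5 genes in each library (circles replicate 1, triangles replicate 2), with bars for the mean and lines for the SD of the 2 libraries of each cell type and a separate linear axis for each gene. *Il2* stood at 6.02 and 4.90 CPM in Th17 and below 1 CPM elsewhere, while *Csf1* reached 332 and 226 CPM in Th1.

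For *Il2*, the growth factor gene, Naive replicates 1 and 2 had 39 and 11 counts, or 0.602 and 0.591 CPM. Th17 replicates 1 and 2 had 361 and 87 counts, or 6.02 and 4.90 CPM. Th1 replicates 1 and 2 had 6 and 3 counts, or 0.0869 and 0.164 CPM, the latter at the limit of detection. Every Th17 library lay above both Naive libraries, and every Naive library above both Th1 libraries. The means were 0.596 ± 0.00741 CPM in Naive, 5.46 ± 0.789 in Th17 and 0.125 ± 0.0542 in Th1 (SD, n = 2 each). *Il2* rose 9.29-fold in Th17 over Naive, a log2 fold change of 3.22 (SE 0.55, 95% interval 1.99 to 4.44, adjusted p = 0.0045 by edgeR). This call was lost when any 1 of the 4 libraries compared was left out, with log2 fold changes of 3.14 to 3.29 and adjusted p-values of 0.02 to 0.043. The difference on log2 CPM was 3.17 between the libraries numbered 1 and 3.07 between those numbered 2. In Th1 against Naive the log2 fold change was -2.17 (SE 0.65, 95% interval -3.61 to -0.73), and it was not called (adjusted p = 0.046 by edgeR). It moved to -1.5 without Th1 replicate 1 (adjusted p = 0.32) and to -2.56 without Th1 replicate 2 (adjusted p = 0.058). Pooled over libraries, 9 counts in Th1 against 50 in Naive gave a ratio of 0.172 (95% exact interval 0.0743 to 0.353, counting error only). *Il2* was 41.7-fold lower in Th1 than in Th17, with a log2 fold change of -5.38 (SE 0.65, 95% interval -6.84 to -3.93, adjusted p = 8.7e-04 by edgeR). It stayed called with any library left out, at -4.76 without Th1 replicate 1 and -5.76 without Th1 replicate 2.

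For *Csf2*, which encodes GM-CSF, Naive replicates 1 and 2 had 19 and 2 counts, or 0.293 and 0.107 CPM. Th17 replicates 1 and 2 had 1984 and 433 counts, or 33.1 and 24.4 CPM. Th1 replicates 1 and 2 had 1322 and 514 counts, or 19.1 and 28.0 CPM. The libraries of both polarized cell types lay far above the Naive libraries, and the Th17 and Th1 libraries overlapped. *Csf2* rose in Th17 over Naive by a log2 fold change of 6.94 (SE 0.52, 95% interval 5.79 to 8.11, adjusted p = 5.9e-05 by edgeR). It rose in Th1 over Naive by a log2 fold change of 6.89 (SE 0.52, 95% interval 5.73 to 8.05, adjusted p = 5.7e-05 by edgeR). Both comparisons share the Naive libraries, and 1 of these was below the limit of detection, so the size of both folds rests on 21 Naive counts. Without Naive replicate 1 the log2 fold changes were 8.07 in Th17 and 8.0 in Th1, and over all libraries left out in turn they ran from 6.60 to 8.07 and from 6.52 to 8.0, with the calls kept. Pooled counts gave a Th17 to Naive ratio of 124 (95% exact interval 80.7 to 200) and a Th1 to Naive ratio of 83.4 (54.4 to 135), for counting error only. Between Th1 and Th17 the log2 fold change of *Csf2* was -0.06 with a 95% interval of -0.89 to 0.78 (SE 0.37, adjusted p = 0.93 by edgeR). That interval allows a difference of almost 1 log2 unit in either direction, and the libraries numbered 1 and 2 differed in sign, at -0.57 and 0.41 on log2 CPM. Leaving out 1 library at a time moved the value between -0.41 and 0.24, and it was positive without Th17 replicate 1 (0.10) and without Th1 replicate 1 (0.24).

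For *Csf1*, which encodes M-CSF, Naive replicates 1 and 2 had 261 and 93 counts, or 4.03 and 4.998 CPM. Th17 replicates 1 and 2 had 673 and 126 counts, or 11.2 and 7.10 CPM. Th1 replicates 1 and 2 had 22963 and 4152 counts, or 332 and 226 CPM. No 2 cell types overlapped, and the Th1 libraries stood far above the other 4. The means were 4.51 ± 0.687 CPM in Naive, 9.16 ± 2.91 in Th17 and 279 ± 75.0 in Th1 (SD, n = 2 each). *Csf1* rose 73.7-fold in Th1 over Naive, with a log2 fold change of 6.20 (SE 0.36, 95% interval 5.40 to 7.01, adjusted p = 1.6e-05 by edgeR), and by p-value it ranked 8 among the genes tested. In Th1 it stood 35.2-fold above Th17, with a log2 fold change of 5.14 (SE 0.34, 95% interval 4.37 to 5.90, adjusted p = 7.5e-05 by edgeR), and there it ranked 6. The difference between Th1 and Th17 on log2 CPM was 5.10 for the libraries numbered 1 and 5.19 for those numbered 2. In Th17 against Naive the log2 fold change of *Csf1* was 1.07 (SE 0.30, 95% interval 0.39 to 1.74), and it was not called (adjusted p = 0.041 by edgeR). Without the filter on low counts it was 1.06 and was called (adjusted p = 0.0095), and over all other settings its adjusted p-value ran up to 0.21.

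*Il3* had 0 counts in both Naive libraries, 14 and 3 counts in Th17 replicates 1 and 2 and 6 and 5 counts in Th1 replicates 1 and 2. As levels these were 0.233 and 0.169 CPM in Th17 and 0.0869 and 0.272 CPM in Th1, and the libraries of the polarized cell types overlapped. The limit taken for the Naive count of 0 was 3 counts over the Naive libraries. Pooled *Il3* was 6.08-fold that limit in Th17 and 3.50-fold in Th1. These folds leave out the counting error of the 17 and 11 pooled counts themselves. Its Th1 to Th17 ratio of pooled counts, 0.575, had a 95% exact interval of 0.244 to 1.30 for counting error only. In an edgeR fit of 17846 genes without the filter, *Il3* had adjusted p-values of 0.034 in Th17 and 0.046 in Th1 against Naive and was not called. DESeq2 gave 0.088 and 0.094 for the same comparisons.

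*Il9*, the gene of a cytokine best known from Th9 cells and type 2 innate lymphoid cells, had 15 counts in Th17 replicate 1 and 1 count in Th17 replicate 2. These were 0.250 and 0.0564 CPM, the latter below the limit of detection. The 4 Naive and Th1 libraries had 0 counts of *Il9*, which allows up to 0.0360 CPM over the Naive libraries and 0.0343 CPM over the Th1 libraries. Pooled *Il9* in Th17 was 5.73-fold the Naive limit and 6-fold the Th1 limit, which leaves out the counting error of its 16 counts. In the edgeR fit without the filter its adjusted p-values were 0.069 against Naive and 0.081 for Th1 against Th17, so *Il9* was not called. Nearly all of its counts came from a single library.

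Set on a scale per kilobase of exon, the 5 genes had a different order in each cell type. In Naive, *Csf1* stood at 0.854 ± 0.13 CPM per kilobase, *Il2* at 0.521 ± 0.00648 and *Csf2* at 0.250 ± 0.164 (SD, n = 2 each). The 3 genes did not overlap between libraries on this scale, although a single library of *Csf2* was below the limit of detection. In Th17, *Csf2* led with 35.9 ± 7.67 CPM per kilobase, followed by *Il2* with 4.77 ± 0.690 and *Csf1* with 1.74 ± 0.552. *Il3*, at 0.320 ± 0.0723 CPM per kilobase, and *Il9*, at 0.286 ± 0.256, came last in Th17 and overlapped each other. In Th1, *Csf1* stood at 62.9 and 42.9 CPM per kilobase in replicates 1 and 2, and *Csf2* at 23.9 and 35.0. These 2 genes did not overlap per kilobase in Th1, but their order was set by 2 libraries and was not tested. *Il3*, at 0.286 ± 0.209 CPM per kilobase, and *Il2*, at 0.109 ± 0.0474, overlapped in Th1. The exons of all *Csf1* transcripts cover 5281 bases, and by its longest transcript of 4176 bases *Csf1* stood at 66.9 CPM per kilobase in Th1.

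**Figure D2:**
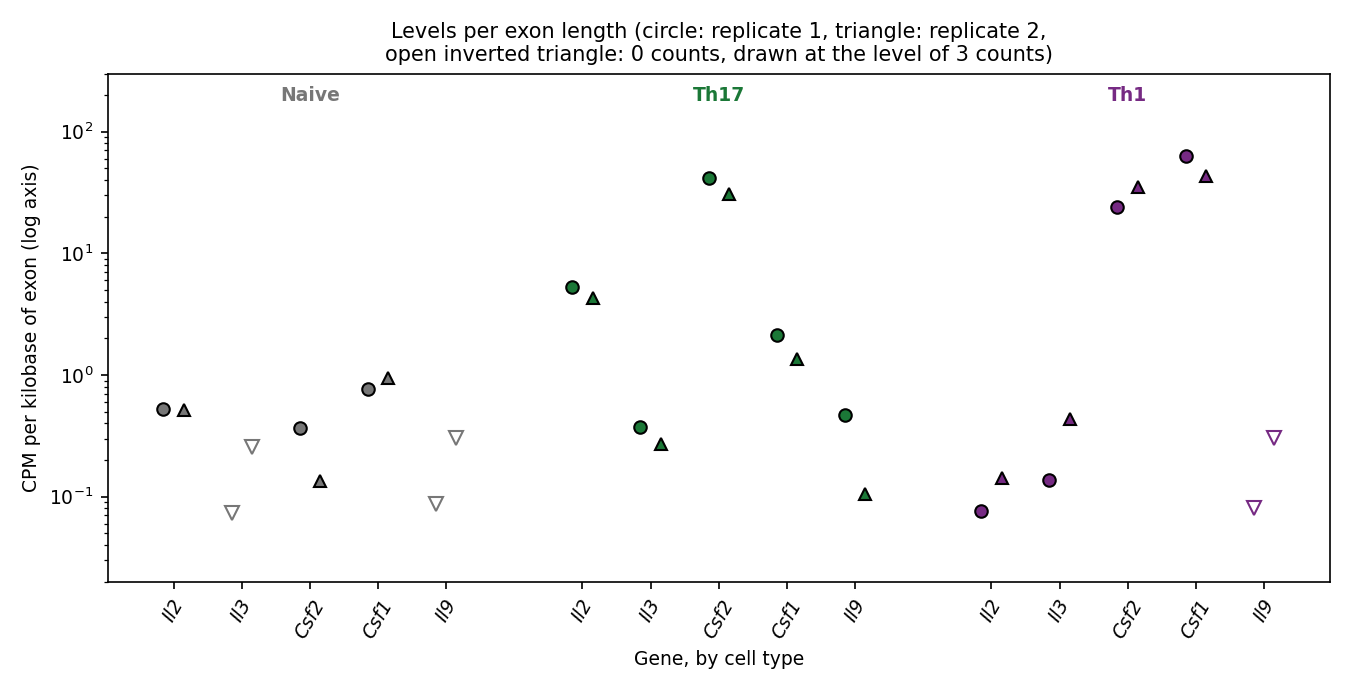
Level of each gene per kilobase of exon on a log axis, with genes grouped by cell type, circles for replicate 1 and triangles for replicate 2. Open inverted triangles stand at the level of 3 counts for libraries with 0 counts; *Csf2* led in Th17 with a mean of 35.9 CPM per kilobase and *Csf1* in Th1.

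Of the 3 tested genes, *Il2* and *Csf2* were called higher in Th17 than in Naive, where 4.01% of all genes tested were called higher and 1.43% lower. None of the 3 was called lower by edgeR or DESeq2, and 0 were lower at an unadjusted p under 0.05. *Csf2*, with 19 and 2 counts in the Naive libraries, passed the filter through the polarized libraries. It could therefore hardly be called lower than Naive in either comparison. In Th1 against Naive, *Csf2* and *Csf1* were called higher, against 4.64% of all genes, and none was called lower by edgeR or DESeq2, against 2.81%, although 1 (*Il2*) was lower at an unadjusted p under 0.05. In Th1 against Th17, *Csf1* was called higher, against 2.70% of all genes, and *Il2* lower, against 2.83%. The median log2 fold change over all genes tested lay between -0.027 and -0.017 in the 3 comparisons. The difference between the effects of the Th17 and Th1 cultures on a gene is itself the comparison of Th1 with Th17, which was called for *Il2* and *Csf1* and not for *Csf2*.

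**Figure D3:**
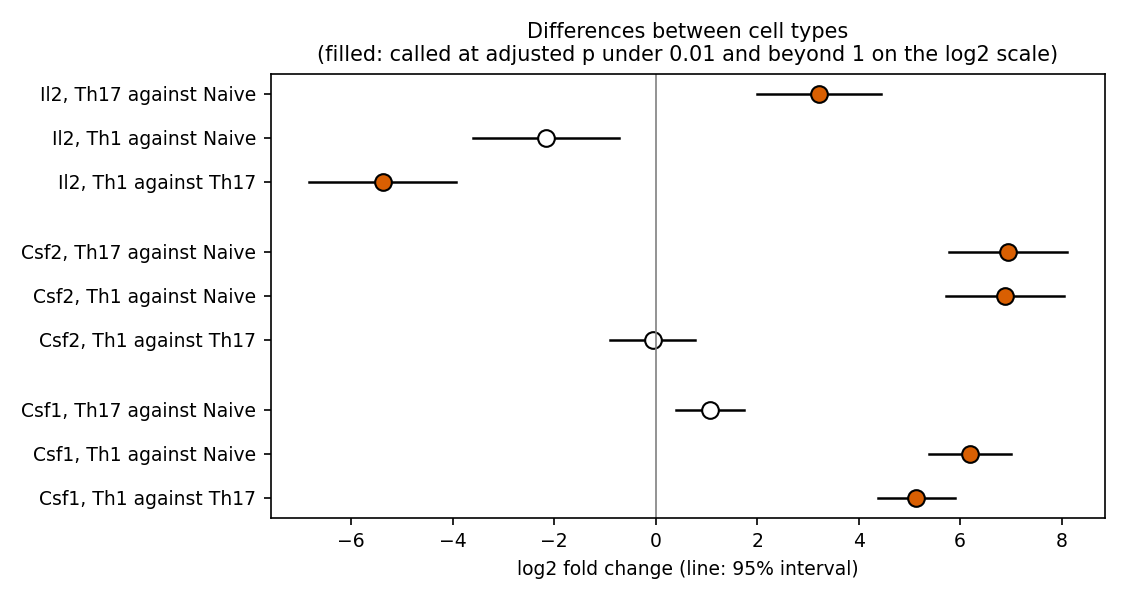
The log2 fold change of each tested gene (point) with its 95% interval (line) in the 3 comparisons, filled where called. The intervals of *Csf2* against Naive lie above 5, its interval for Th1 against Th17 spans 0, and those of *Il2* and *Csf1* for Th1 against Th17 lie on opposite sides of 0.

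Receptor chains of these cytokines were all measured, and 7 of the 9 were called in at least 1 comparison. In Th17 against Naive 3 of 9 were called higher and 0 lower, in Th1 against Naive 4 higher and 2 lower, and in Th1 against Th17 1 higher and 1 lower. Over all genes tested, the shares called higher and lower were 4.01% and 1.43%, 4.64% and 2.81%, and 2.70% and 2.83% in these comparisons. The 2 chains called lower in Th1 than in Naive became 1 without either Th1 library, and the 1 called lower in Th1 than in Th17 became 2 without either Naive library and 3 without Th1 replicate 1. Where edgeR called 0 lower, DESeq2 called 1, and 1 (*Il9r*) was lower at an unadjusted p under 0.05. The median log2 fold changes of the 9 chains were 0.47, 1.28 and -0.64, beside -0.019, -0.017 and -0.027 over all genes. *Il2ra*, the alpha chain that makes the IL-2 receptor high-affinity, stood at 61.2 ± 23.6 CPM in Naive, 419 ± 167 in Th17 and 842 ± 178 in Th1 (SD, n = 2 each). It rose by log2 fold changes of 2.80 in Th17 (adjusted p = 0.0015) and 4.03 in Th1 (adjusted p = 2.6e-04) over Naive, and the 1.23 between Th1 and Th17 was not called (adjusted p = 0.046). *Il2rb*, the signalling chain shared with the IL-15 receptor, stood at 208 and 277 CPM in Naive, 228 and 114 CPM in Th17 and 1409 and 1903 CPM in Th1. It rose in Th1 over Naive (3.03, adjusted p = 9.9e-04) and was higher in Th1 than in Th17 (3.52, adjusted p = 6.8e-04). So in Th1, where *Il2* was at 0.125 CPM, the alpha and beta chains of its receptor had their highest means. *Il2rg*, the common gamma chain, was at 429, 471 and 678 CPM in Naive, Th17 and Th1 and was not called in any comparison.

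*Csf2rb*, the common beta chain of the IL-3 and GM-CSF receptors, stood at 5.51 and 2.53 CPM in Naive, 41.2 and 62.1 CPM in Th17 and 12.4 and 4.52 CPM in Th1. It rose in Th17 over Naive (log2 fold change 3.69, adjusted p = 0.0024). *Csf2rb2*, the beta chain that in the mouse serves IL-3 alone, rose over Naive in Th17 (5.24, adjusted p = 6.3e-04) and in Th1 (3.55, adjusted p = 0.0028). These 2 chains are near-identical copies that lie next to each other, so reads shared between them may have been lost or misassigned in counting. *Il3ra*, the IL-3 receptor alpha chain, rose in Th1 over Naive (2.36, adjusted p = 0.0011), while *Csf2ra*, the GM-CSF receptor alpha chain, was at 21.8, 23.3 and 12.7 CPM and was not called. *Csf1r*, the receptor of M-CSF, stood at 7.79 and 5.21 CPM in Naive, 5.82 and 11.7 CPM in Th17 and 0.391 and 0.381 CPM in Th1. It fell in Th1 below Naive (-3.84, adjusted p = 0.0019) and was lower than in Th17 (-4.30, adjusted p = 0.0015), the comparisons in which *Csf1* was higher. *Il9r*, the IL-9 receptor, fell from 8.03 CPM in Naive to 0.484 CPM in Th1 (-3.71, adjusted p = 0.003), and its 1.41 CPM in Th17 was not called (adjusted p = 0.018). The p-values of the receptor chains come from the same edgeR test.

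**Figure D4:**
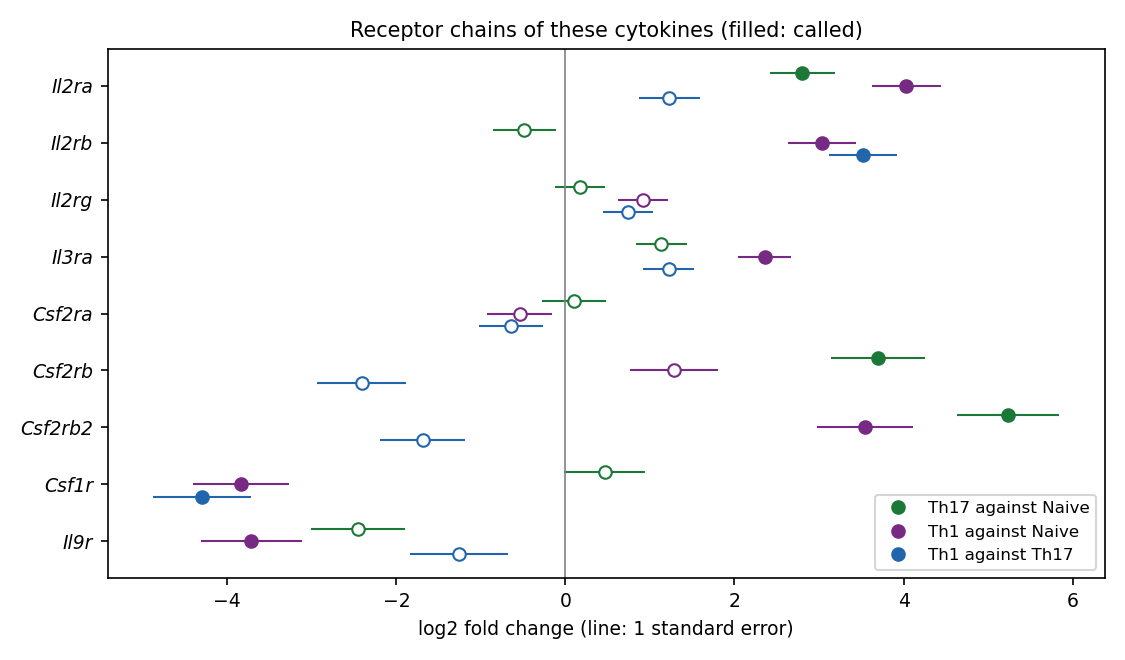
Log2 fold changes of the 9 receptor chains with lines of 1 standard error in the 3 comparisons, filled where called. *Il2rb* stands at 3.03 and 3.52 where Th1 is compared with Naive and Th17, and *Csf1r* at -3.84 and -4.30 in the same comparisons.

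Of 11 genes of STAT5 signalling, 2 were called higher in Th17 than in Naive, 4 in Th1 than in Naive and 1 in Th1 than in Th17, and none lower by edgeR or DESeq2. Over all genes, the shares called higher and lower were 4.01% and 1.43%, 4.64% and 2.81%, and 2.70% and 2.83% in these comparisons. The count in Th17 became 0 without Naive replicate 1 or Th17 replicate 1, and that of Th1 against Th17 became 0 without either Th17 library or Th1 replicate 2. At an unadjusted p under 0.05, 1 was lower in Th17 than in Naive (*Jak1*) and 0 in the other comparisons. Their median log2 fold changes were 0.66, 0.98 and 0.68. The called genes were *Socs1*, *Socs2* and *Socs3*, which encode feedback inhibitors of cytokine signalling, and *Pim1*, a kinase gene induced by STAT5. *Socs2* rose over Naive in Th17 (2.22, adjusted p = 0.0018) and Th1 (3.36, adjusted p = 2.2e-04 by edgeR). *Socs1* stood at 34.0 and 48.7 CPM in Naive, 88.2 and 63.9 CPM in Th17 and 195 and 269 CPM in Th1, and was higher in Th1 than in either other cell type (2.75 over Naive, adjusted p = 5.1e-04, and 1.84 over Th17, adjusted p = 0.0045 by edgeR). *Cish*, another gene induced by STAT5, which was added after its values were seen, had log2 fold changes of 1.32 and 1.41 over Naive and was not called.

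Among 12 factors known to activate transcription of these cytokine genes, 2 were called higher and 2 lower in Th17 than in Naive, 3 higher and 1 lower in Th1 than in Naive, and 4 higher and 1 lower in Th1 than in Th17. Over all genes, the shares called higher and lower were 4.01% and 1.43%, 4.64% and 2.81%, and 2.70% and 2.83%. The 2 called lower in Th17 became 0 without either Th17 library and 1 without Naive replicate 2 or either Th1 library. In Th1 against Naive, the 3 called higher became 1 without Naive replicate 1, and the 1 called lower became 0 without that library, Th17 replicate 1 or either Th1 library. The 4 called higher in Th1 than in Th17 became 1 without Th17 replicate 1 and 2 without Th17 replicate 2 or Th1 replicate 2. *Bhlhe40*, a factor required for GM-CSF production by T helper cells, stood at 9.21 and 9.13 CPM in Naive, 126 and 114 CPM in Th17 and 352 and 437 CPM in Th1. It rose by 3.74 in Th17 (adjusted p = 7.7e-05) and 5.68 in Th1 (adjusted p = 1.6e-05 by edgeR) over Naive on the log2 scale. *Csf2* rose over Naive in the same comparisons, but *Bhlhe40* was higher in Th1 than in Th17 (1.94, adjusted p = 0.0019), where *Csf2* was not called. The AP-1 gene *Fos* fell from 66.0 and 174 CPM in Naive to 3.52 and 1.58 CPM in Th17 (-5.47, adjusted p = 0.0021), and *Il2* was highest in the same libraries. *Jun*, its partner, was at 742 and 1274 CPM in Th1 against 58.8 and 35.0 CPM in Th17 (4.67, adjusted p = 4.9e-04). *Batf* rose over Naive in Th17 (2.00, adjusted p = 0.0013) and Th1 (1.31, adjusted p = 0.0079), and *Nfatc1*, named after its values were seen, fell in Th17 below Naive (-1.67, adjusted p = 0.0098). *Spi1*, which encodes PU.1, a factor of myeloid cells and of IL-9-producing T cells, stood at 1.51 and 1.58 CPM in Th1 against 36.2 and 28.8 CPM in Th17 (-4.18, adjusted p = 0.0012). The median log2 fold changes of the 12 factors were -0.46, 0.68 and 1.13 in the 3 comparisons.

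Of 5 factors known to repress *Il2*, 1 was called higher in Th17 than in Naive, 2 were called higher in Th1 than in Naive, and none was called lower in any comparison by edgeR or DESeq2. None was called higher in Th1 than in Th17 by edgeR, and 1 was by DESeq2. At an unadjusted p under 0.05, 3 were lower in Th17 than in Naive and 4 were higher in Th1 than in Th17. Over all genes, the shares called higher and lower were 4.01% and 1.43% in Th17 and 4.64% and 2.81% in Th1 against Naive. For Th1 against Th17 they were 2.70% and 2.83%. The share of all genes at an unadjusted p under 0.05 was not counted. The count in Th17 became 0 without either Th17 library, that in Th1 became 1 when any 1 of the 4 libraries compared was left out, and that of Th1 against Th17 became 1 without Naive replicate 2. *Crem*, whose product binds the *Il2* promoter, rose to 40.2 CPM in Th17 and 40.2 CPM in Th1 from 9.05 CPM in Naive (2.18, adjusted p = 0.0018, and 2.39, adjusted p = 9.8e-04 by edgeR). *Prdm1*, which encodes Blimp-1, stood at 5.74 and 9.94 CPM in Naive, 13.1 and 4.85 CPM in Th17 and 30.6 and 31.5 CPM in Th1. It rose in Th1 over Naive (2.25, adjusted p = 0.0091), and the 2.02 over Th17 was not called (adjusted p = 0.017). The median log2 fold changes of the 5 factors were -0.84, 0.06 and 0.90.

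Beside the 5 genes, 21 other cytokine genes were measured. In Th17 against Naive 10 of the 21 were called higher and 0 lower, in Th1 against Naive 6 higher and 0 lower, and in Th1 against Th17 3 higher and 6 lower. Over all genes, the shares called higher and lower were 4.01% and 1.43%, 4.64% and 2.81%, and 2.70% and 2.83%. The 3 called higher in Th1 than in Th17 became 0 without either Th17 library and 1 without Th1 replicate 1. DESeq2 called 0 lower in Th17 and 1 lower in Th1 than in Naive, and 1 was lower in each at an unadjusted p under 0.05. Their median log2 fold changes were 3.64, 1.67 and -0.53, beside values near 0 over all genes. Several of the 21 passed the filter only through polarized libraries and could hardly be called lower than Naive. Among them were *Il5*, *Il24*, *Il6* and *Il17a*, with Naive means of 0, 0.00771, 0.0154 and 0.189 CPM. The counts of 0 lower and the medians against Naive were therefore in part set by the filter. *Il17f*, *Il22* and *Il17a*, the cytokines that define Th17 cells, had means of 962, 668 and 631 CPM in Th17 and each at most 0.281 CPM in the other cell types. *Il24* and *Il6* reached 3.54 and 4.67 CPM in Th17 from at most 2 counts in a Naive library. The 3 called higher in Th1 than in Th17, named after their values were seen, were *Ifng* (1.55, adjusted p = 0.0045), *Il10* (3.06, adjusted p = 0.0045) and *Osm* (1.98, adjusted p = 0.0072). The log2 fold change of *Csf1* in that comparison, 5.14, was larger than that of each of these.

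**Figure D5:**
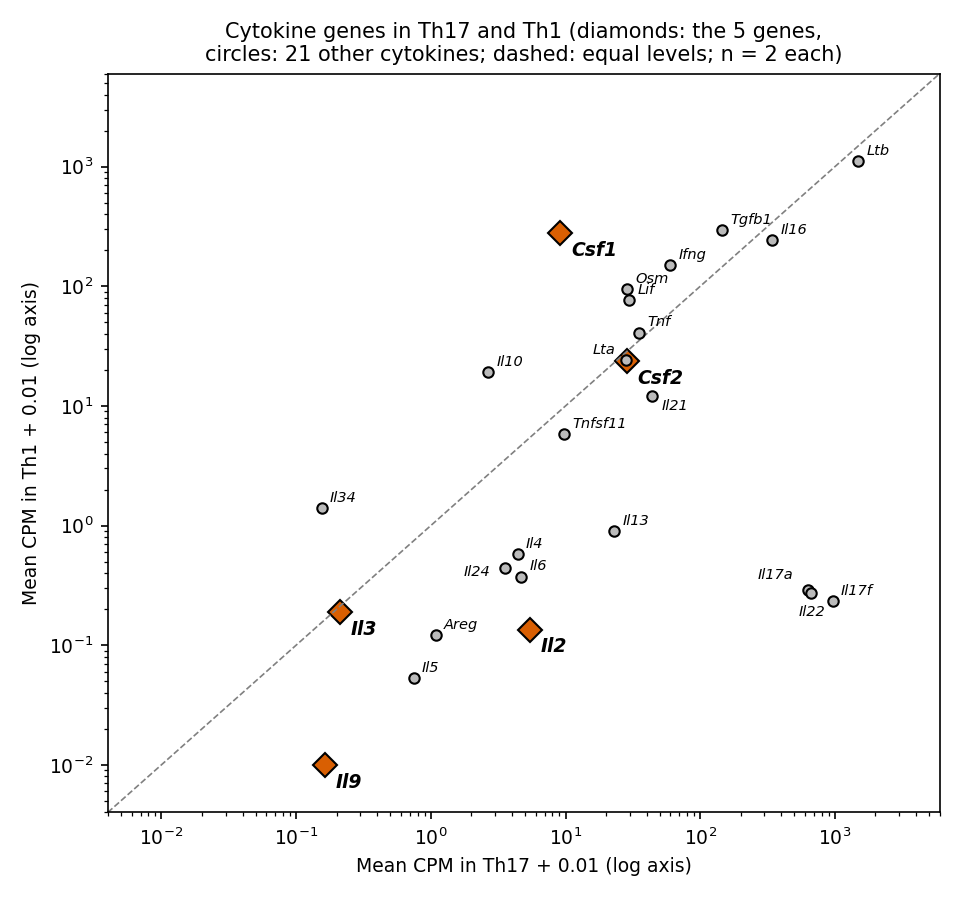
Mean CPM in Th1 against mean CPM in Th17 for the 5 genes (diamonds) and 21 other cytokine genes (circles), on log axes after adding 0.01, with a dashed line of equal levels. *Csf1* lies above the line at 279 against 9.16 CPM, *Csf2* near it at 23.6 against 28.7 CPM and *Il2* below it at 0.125 against 5.46 CPM.

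Other cells that make or answer to these cytokines were looked for by their markers. The 8 mast cell and basophil markers, of cells that make IL-3, summed to 41.1 and 146 CPM in Naive, 232 and 426 CPM in Th17 and 52.7 and 69.6 CPM in Th1. *Kit*, which is not particular to these cells, made up most of the Naive sums, at 32.1 of the 41.1 CPM and 105 of the 146 CPM, and stood at 11.4 and 14.0 CPM in Th17. The more particular *Fcer1a*, *Mcpt8* and *Cpa3* rose in Th17 over Naive by log2 fold changes of 7.51, 4.34 and 3.82 (adjusted p = 9.0e-04, 0.0034 and 0.0091 by edgeR), and the other 5 markers were not called. None of the 8 was at 0 in Th17, *Mcpt4* and *Tpsb2* were at 0 in Naive replicate 2, and *Mcpt4* in Th1 replicate 2. Neutrophil markers moved more as a sum. The 6 genes *Camp*, *Elane*, *Ltf*, *Ngp*, *S100a8* and *S100a9* summed to 2705 and 3059 CPM in Th17. Their sums were 32.4 and 62.6 CPM for Naive, then 19.3 and 27.4 CPM for Th1. The Naive sums were almost wholly *Elane*, with 32.1 of the 32.4 CPM and 60.2 of the 62.6 CPM. *Elane* was not called in Th17 against Naive (log2 fold change 0.19, adjusted p = 0.76 by edgeR). *Camp*, *Ltf*, *Ngp*, *S100a8* and *S100a9* were each called higher there. In Th1 against Naive, *Elane* was called lower (-3.84, adjusted p = 5.1e-04 by edgeR), and the Th1 sums hide rises of other markers. *Ltf*, *Ngp*, *S100a8* and *S100a9* were called higher in Th1, at 3.07, 5.10, 3.24 and 3.87. Their adjusted p-values by edgeR were 0.0068, 6.5e-04, 0.0029 and 0.0033, and *Camp* was not called (2.90, adjusted p = 0.02). None of the 6 was at 0 in Th17, where *Il2* and *Il9* were also highest and where *Csf2rb* and *Spi1*, both active in myeloid cells, had their highest means. The 5 macrophage markers, among them *Csf1r*, summed to 20.6 and 34.3 CPM in Th17, 10.1 and 12.1 CPM in Naive, then 3.76 and 9.06 CPM in Th1, with none at 0, so they were lowest where *Csf1* was highest. Fibroblast and endothelial markers, 6 genes of cells that make M-CSF, were almost wholly *Pecam1*, which stood at between 141 and 237 CPM in all libraries and overlapped between the cell types. *Cdh5*, *Col1a1*, *Col1a2*, *Col3a1* and *Pdgfra* each stood at 1.12 CPM or less in every library. *Pdgfra* was at 0 in 5 of the 6 libraries and *Col3a1* in 3. The NK cell and innate lymphoid cell markers summed to 37.4 and 37.7 CPM in Naive, 1.86 and 2.79 CPM in Th17 and 10.4 and 11.7 CPM in Th1. *Klra8* was at 0 in every library and *Ncr1* in Th17 and Th1 replicate 2. *Eomes* made up nearly all of the Th1 sums, at 10.3 of the 10.4 CPM and 11.5 of the 11.7 CPM. It stood at 18.3 and 25.3 CPM in Naive. *Klrb1c* stood at 18.3 and 12.2 CPM in Naive, 1.03 and 1.18 CPM in Th17 and 0.159 and 0.109 CPM in Th1. B cell markers summed to 7.09 and 11.1 CPM in Naive, 11.8 and 17.2 CPM in Th17 and 2.26 and 2.56 CPM in Th1, and *Cd8a* and *Cd8b1* to between 5.64 and 12.3 CPM in all libraries. The part of such cells in the levels of the 5 genes was not tested.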

How the data were processed

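RNA-Seq was analysed for Naive, Th17 and Th1 cells, with 2 libraries per cell type. Per the labels, polyadenylated RNA was reverse transcribed by Smart-seq2, and TruSeq libraries were sequenced on an Illumina HiSeq. The authors mapped reads to mm10 with HISAT2 (v2.2.1) and counted them on genes with HTSeq (v0.13.5), and the deposited values are raw counts. Duplicates were removed according to the methods, and HTSeq ran with default parameters, whereas the supplementary code has no such removal and a reverse-stranded option, so reads of antisense genes may be included. The labels also name StringTie (v2.1.7) and DESeq2 (v1.34.0), whose output was not used here.

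CPM is the count scaled to a library total of 1000000. Counts were tested with edgeR 4.0.16 and limma 3.58.1 under R 4.3.3, using filterByExpr, TMM factors (0.862 to 1.09), and 1 quasi-likelihood model in which all 6 libraries entered and cell type was the term, with 3 residual degrees of freedom. The replicate number was no term in it. The test adds degrees of freedom drawn from the spread of all genes tested. Its p-values and intervals therefore do not rest on these 3 degrees alone. The paper describes the replicates as biological and does not say which mice each came from, so p-values measure the spread between these libraries. DESeq2 1.42.0, other scalings and filters, a replicate block and leaving out libraries were alternatives. Intervals of edgeR's fold changes include the spread between libraries. Exact intervals of pooled counts and limits of detection cover counting error only, and reads are not independent molecules. Coordinates are from GENCODE vM21, and promoters (all 5 genes matched) and older symbols are from RefSeq; *Adgre1* was counted as *Emr1*. The genes named are the 5 genes, from each list at most 5 called members with the largest changes, the 2 nearest coding genes on each side and the 3 genes most similar in pattern. *Il2rb*, *Il2rg*, *Il3ra* and *Csf2ra*, which fall outside that rule, were named after their values were seen. The 5 genes and all lists were chosen with earlier results of these data known. Some neighbouring and marker genes are not reported here. The procedure was tested on simulated data.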

Additional observations from a re-analysis of the deposited data

Results flagged for a closer look

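The differences of *Il2* and *Csf1* between Th1 and Th17 are also differences between the effects of the 2 cultures against the same Naive libraries, and each was tested as such by edgeR. For *Il2* the log2 fold change of Th1 against Th17 was -5.38 (adjusted p = 8.7e-04), with the Naive libraries between the other cell types, though Th1 against Naive was not called. For *Csf1* it was 5.14 (adjusted p = 7.5e-05), with the libraries of both cell types above Naive, though Th17 against Naive was not called. Each difference had the same direction between the libraries numbered 1 and between those numbered 2. With 2 libraries per cell type, no library was examined as an outlier of its group.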

How the results depend on the processing

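For *Il2* in Th17 against Naive, leaving out 1 library gave log2 fold changes of 3.14 to 3.29, and the call was lost without any of the 4 libraries compared. Leaving out a library leaves 1 in its cell type, which was assumed to vary like the others. *Csf1* in Th17 against Naive was called without a filter (1.06). *Csf2* in Th1 against Th17, never called, ranged from -0.41 to 0.24 and was positive without Th17 replicate 1 (0.10) and without Th1 replicate 1 (0.24). The number of the 5 genes called in Th17 against Naive ranged from 1 to 2 when a library was left out. With at least 10 counts in every library, a filter that *Csf2* and *Il2* cannot pass, it was 0, 1 and 1 in the 3 comparisons in place of 2 each. At an adjusted p under 0.05, 3 of the 5 genes were called in each comparison with Naive. No other setting ended or turned the call of a gene, and with a library left out the highest adjusted p-value of *Il2* in Th1 against Th17 was 0.0096.

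The replicate number as a block gave 3.21 for *Il2* in Th17 against Naive (adjusted p = 0.0026) and changed no call of the 5 genes. Deviations of same-numbered libraries correlated at -0.231 (Naive and Th17), 0.168 (Naive and Th1) and 0.077 (Th17 and Th1), so the numbers were not taken to pair the libraries. All genes called under the block numbered 1035, 1402 and 1041, in place of 739, 1014 and 752. In the 4 libraries of Naive and Th17, a crossed pairing chosen after seeing the data called 1499 genes and the labelled pairing 1307, with 2 of the 5 genes called in each.

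All genes called numbered 1717, 1917 and 1797 with DESeq2, 2154, 2259 and 2232 without a filter, 343, 674 and 411 with at least 10 counts in every library, and 2063, 2164 and 2112 at an adjusted p under 0.05. They fell to as few as 319, 516 and 266 when a library was left out. Under the alternatives, 128 of these counts and of the counts and medians of the lists moved and 564 did not. Depth limits *Il3*, *Il9*, *Il2* in Th1 and *Csf2* in Naive, each at 21 counts or fewer over both libraries of at least 1 cell type.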

Other observations

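Of the protein-coding genes nearest to the 5 genes, several were also called. *Il21*, the T helper cytokine gene 96.8 kb from *Il2* on the same strand, stood at 1.84 and 1.88 CPM in Naive, 38.7 and 48.5 CPM in Th17 and 12.5 and 11.7 CPM in Th1. It rose in Th17 (log2 fold change 4.59) and in Th1 (2.95) over Naive and was lower in Th1 than in Th17 (-1.64, adjusted p = 0.0077 by edgeR). So in Th1 *Il21* lay above Naive, while the lower *Il2* there was not called (adjusted p = 0.046 by edgeR). *Cetn4*, the next gene at 181.8 kb, rose in Th1 over Naive (4.08, adjusted p = 0.0041 by edgeR). On the other side of *Il2*, *4932438A13Rik* was not called.

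Beside *Csf2* and *Il3*, *P4ha2*, a collagen prolyl hydroxylase gene 115.6 kb from *Csf2*, stood at 1.67 and 2.42 CPM in Naive, 6.44 and 5.75 CPM in Th17 and 20.1 and 34.9 CPM in Th1. It rose in Th1 over Naive (4.04, adjusted p = 3.7e-04) and was higher than in Th17 (2.41, adjusted p = 0.0045 by edgeR), where *Csf2* did not pass the test. *Pdlim4* fell in Th17 below Naive (-4.24, adjusted p = 0.0034 by edgeR), while *Acsl6* and *Fnip1* were not called. Near *Csf1*, *Ahcyl1* at 44.5 kb was not called, *Eps8l3* had 0 counts, and *Gstm5* fell in Th1 below Naive (-4.97, adjusted p = 0.0052 by edgeR), with 1182 and 56 counts in the Naive libraries. Near *Il9*, *Slc25a48*, *Cxcl14* and *Lect2* had 0 counts in every library, and *Fbxl21* was not called.

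By Pearson's r of log2 CPM over the 6 libraries, a description in which the 2 libraries of a cell type count as separate points, the genes most like *Il2* were *Ralb* (0.996), *Cd177* (0.995) and *Irak3* (0.994). Those most like *Csf2* were *Cend1* (0.999), *Cebpd* (0.998) and *Lrrn4* (0.995), of which *Cend1* and *Lrrn4* stayed below 1 CPM in every library. Those most like *Csf1* were *Il12rb2* (0.999), the gene of an IL-12 receptor chain, *Pclo* (0.998) and *Igtp* (0.997), a gene induced by interferon-γ. *Il12rb2* stood at 316 and 242 CPM in Th1 and at 4.01 and 4.08 CPM in Naive. With 3 cell types many genes share a pattern, and 126 genes had an r above 0.95 with *Il2*, 185 with *Csf2* and 251 with *Csf1*.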
